A study of Mus musculus with 2 samples.

Results

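VEGF and angiopoietin signalling was followed in single cells of the mouse rib repair callus through 10 genes chosen by name, of 31054 genes in the count matrices: the ligands Vegfa, Vegfb, Vegfc, Vegfd, Pgf, Angpt1 and Angpt2 and the receptors Kdr, Flt1 and Tek. Their raw unique molecular identifiers (UMIs) were summed in cells with 200 or more genes and under 10% of UMIs from mitochondrial genes, and all 10 had UMIs in both libraries. Calluses had been taken 4 days after a large-scale rib resection. The control mice were Sox9:CreER;R26:tdT;Smof/+ and the Smo cKO mice Sox9:CreER;R26:tdT;Smof/f, so both carried the tamoxifen-inducible Cre driven by Sox9 and the tdTomato reporter, both had received tamoxifen before injury, and the controls kept 1 floxed allele of Smo, the transducer of Hedgehog signals. Tissue of 3 animals per genotype was pooled into 1 library, from mice of both sexes that were 8 to 12 weeks old across the study as a whole. With 1 library per genotype no difference between genotypes was tested, and every interval below is a 95% interval that covers counting error only. The Cre is designed to act in cells with Sox9 activity at the time of tamoxifen, and the change passes to their descendants. Whether other cells of the Smo cKO callus kept their alleles was not tested.

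VEGF-A is the main driver of blood vessel sprouting and acts on endothelial cells through VEGFR2, encoded by Kdr. VEGFR1, encoded by Flt1, binds VEGF-A tightly with weak signalling and can hold it away from VEGFR2, while PlGF (Pgf) and VEGF-B (Vegfb) bind VEGFR1 but not VEGFR2. VEGF-C and VEGF-D act mainly through VEGFR3 (Flt4), the receptor of lymphatic endothelium. Angiopoietin 1 is made by cells around vessels and activates TIE2 (Tek) on endothelium, which steadies vessels, and angiopoietin 2, released by endothelial cells, competes with it. In a healing bone, vessel ingrowth into the callus accompanies the change from soft to mineralised tissue.

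The genes lie on 8 chromosomes of the mm10 assembly (GRCm38): Vegfa at chr17:46016993-46032369, Vegfb at chr19:6982473-6987651, Vegfc at chr8:54077606-54187096, Vegfd at chrX:164373378-164402650, Pgf at chr12:85166635-85177790, Angpt1 at chr15:42424723-42676977, Angpt2 at chr8:18690263-18741562, Kdr at chr5:75932827-75978458, Flt1 at chr5:147561604-147726011 and Tek at chr4:94739289-94874976. All 10 are protein-coding. The 3 receptors had their highest levels in endothelial cells, and the 250 bases before their start sites (RefSeq, GRCm38.p6, read 5′ to 3′ on each gene's strand) are shown for that reason, with the letters GGAA, or TTCC on the other strand, in capitals. GGAA is the core of the sites bound by ETS factors, a family known to act on many endothelial genes. The windows are chr5:75978456-75978705 on the minus strand for Kdr, chr5:147726012-147726261 on the minus strand for Flt1 and chr4:94739039-94739288 on the plus strand for Tek.
Kdr: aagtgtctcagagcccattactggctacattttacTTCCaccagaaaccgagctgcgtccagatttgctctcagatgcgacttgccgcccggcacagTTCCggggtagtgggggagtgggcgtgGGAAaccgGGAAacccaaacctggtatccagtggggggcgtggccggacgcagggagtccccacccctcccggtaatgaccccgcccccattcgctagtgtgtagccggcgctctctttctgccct
Flt1: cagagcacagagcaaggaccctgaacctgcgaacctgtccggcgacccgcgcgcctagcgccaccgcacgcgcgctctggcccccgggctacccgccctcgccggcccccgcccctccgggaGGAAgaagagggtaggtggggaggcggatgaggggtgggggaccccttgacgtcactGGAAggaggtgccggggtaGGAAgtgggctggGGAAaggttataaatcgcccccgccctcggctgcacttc
Tek: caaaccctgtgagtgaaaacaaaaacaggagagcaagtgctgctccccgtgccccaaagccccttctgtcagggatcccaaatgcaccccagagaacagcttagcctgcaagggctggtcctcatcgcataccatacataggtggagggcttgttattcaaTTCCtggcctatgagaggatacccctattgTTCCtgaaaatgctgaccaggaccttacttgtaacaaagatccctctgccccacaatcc
Kdr held 4 such matches, Flt1 4 and Tek 2. Among 32544 promoter windows of this length, 93.4% held at least 1 match, 33.5% at least 4 and 76.9% at least 2, so these counts are common. The table used had entries for 8 of the members and none for Angpt1 and Angpt2.

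After filtering, 10057 control and 9507 Smo cKO cells remained of 10747 and 10512 barcodes, with medians of 8367 and 9092 UMIs. Cells were placed in 14 classes by lists of 8 marker genes, none of them a member. The classes used most were connective cells (5771 and 4744 cells, control first), macrophages (1404 and 1775), osteoclasts (290 and 159), muscle cells (120 and 230), endothelial cells (56 and 61) and mural cells (30 and 19). Each had markers of its own list among its 10 leading genes, from 1 in connective to 6 in endothelial cells. Since these markers placed the cells, this is largely built in and is no separate check of the names. Cells with markers of 2 compartments, 820 and 1093, were set apart as mixed, since some may be doublets, and 1337 and 1015 cells had too few markers. Libraries shared 599 cell barcodes among kept cells. Smo stood at 19.1 CPM, the count of a gene scaled to 1000000 UMIs of its class, in control and 12.3 in Smo cKO connective cells. It stood at 11.6 and 3.55 CPM in muscle cells (13 and 9 UMIs) and 2.52 and 0.725 in macrophages (11 and 5). Endothelial cells had 5 and 1 Smo UMIs, osteoclasts 1 and 5 and mural cells 4 and 3. Which exons the floxed allele loses is not given in the sources used here, so UMIs of the remaining transcript need not show the deletion. The tdTomato transcript had UMIs in 46 of 5771 and 107 of 4744 connective cells, too few to mark the recombined cells.

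Connective cells were picked by a list with Pdgfra, Prrx1 and Lum among its markers. Lists that divide the class placed 2 and 2 of them by osteoblast markers and 12 and 24 by tendon markers, control first. Connective cells held most UMIs of 5 ligands in both libraries. Their share in control was 81.8% for Vegfa, 75.8% for Vegfb, 83.2% for Vegfc, 88.0% for Vegfd and 86.2% for Angpt1, against 77.6%, 67.8%, 75.7%, 86.9% and 77.8% in Smo cKO. All genes together had 78510952 of 104189394 UMIs in connective cells in control and 75630231 of 110863278 in Smo cKO. Vegfb stood at 16.6 and 11.1 CPM in connective cells and at 16.5 and 11.2 over all kept cells. Its share was thus near that of all UMIs. Vegfa, Vegfc, Vegfd and Angpt1 stood higher in connective cells than over all kept cells. Connective cells also held 67.9% and 69.5% of Pgf UMIs, although the level of Pgf relative to all UMIs was far higher in endothelial cells. Pgf stood at 24.0 and 42.1 CPM in connective cells and at 26.7 and 41.3 over all kept cells. Of the Tek UMIs, 41.1% in control and 40.3% in Smo cKO lay in the endothelial class, which made up 56 and 61 cells. Angpt2 was the most divided member, with 24.5% of its control UMIs in connective, 17.8% in endothelial, 12.1% in osteoclast and 33.2% in mixed cells.

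**Figure D1:**
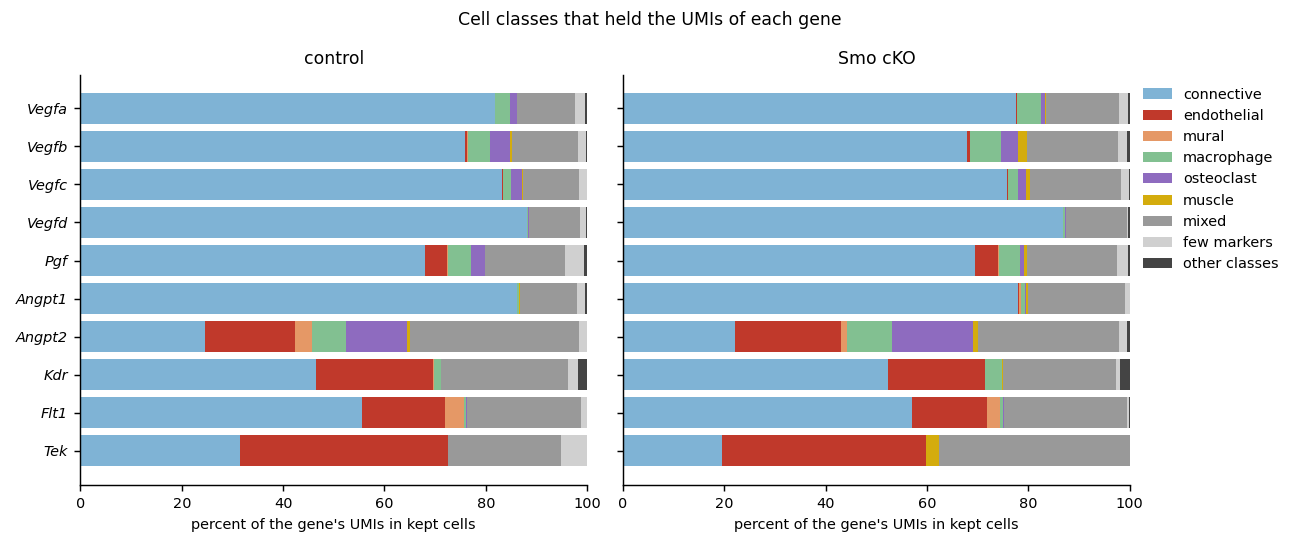
Share of each gene's UMIs (x axis, percent) held by each cell class, for the control library (left) and the Smo cKO library (right). Vegfa, Vegfb, Vegfc, Vegfd, Pgf and Angpt1 were mostly in connective cells, as were the UMIs of all genes together. Endothelial cells held 41.1% and 40.3% of Tek, but 23.0% and 19.1% of Kdr and 16.4% and 14.7% of Flt1. Connective cells held 46.6% and 52.3% of Kdr and 55.5% and 57.1% of Flt1.

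Vegfa was the member with the most UMIs, 9827 in control and 10394 in Smo cKO. In connective cells it stood at 102.3 CPM in control (interval 100.1 to 104.6) and 106.6 in Smo cKO (104.3 to 109.0), a log2 ratio of Smo cKO over control of 0.06 (0.01 to 0.10). The levels were thus nearly equal, and the ratio lay above that of 58.1% of the 15058 genes with 20 or more UMIs in these cells. Vegfa UMIs were found in 3010 and 2759 connective cells, with at most 17 and 24 in 1 cell. Macrophages, which can release VEGF-A in wounds, had 63.8 CPM in control and 73.6 in Smo cKO (log2 ratio 0.21, interval -0.01 to 0.42). Within them, cells with Arg1, Spp1 and Gpnmb markers had 78.7 and 87.6 CPM, and cells with C1q, Mrc1 and Ccl8 markers 56.3 and 66.8, so the first group was higher in both libraries. The control intervals of these groups overlapped (64.3 to 95.4 and 47.9 to 65.6). Those of Smo cKO did not (75.9 to 100.7 and 59.3 to 74.9). Osteoclasts had 49.5 and 37.1 CPM (log2 ratio -0.42, interval -0.84 to 0.00). In endothelial cells Vegfa was low, with 7 and 11 UMIs, or 13.5 and 17.9 CPM, and in muscle cells 6 and 21 UMIs were counted. The small epithelial or mesothelial class, 10 and 17 cells, had 101.6 and 93.5 CPM from 7 and 18 UMIs.

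Neutrophil-gated cells gave the widest ratio of any member, with 21 Vegfa UMIs in 9 of 122 control cells and 4 in 4 of 151 Smo cKO cells. These were 83.3 and 10.1 CPM, a log2 ratio of -3.05 (-5.05 to -1.48). A single control cell held 11 of the 21 UMIs, and the ratio was -0.89 with a gate of 2 markers in place of 3 and -0.91 with classes taken from clusters.

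Vegfb, which acts through VEGFR1, was lower in Smo cKO connective cells, at 16.6 CPM in control (15.7 to 17.5) and 11.1 in Smo cKO (10.4 to 11.9). The log2 ratio was -0.58 (-0.71 to -0.46), and 6.12% of genes had a lower one. Macrophages had a ratio of like size, 17.1 against 11.2 CPM (-0.62, interval -1.10 to -0.14), while osteoclasts had 23.5 and 20.9 CPM with an interval of -0.77 to 0.41. Muscle cells had 8 and 21 UMIs, which were 7.12 and 8.29 CPM.

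Vegfc and Vegfd, the ligands of lymphatic growth, both had most of their UMIs in connective cells, and their ratios there had opposite signs. Vegfc stood at 14.1 CPM in control and 16.4 in Smo cKO connective cells (log2 ratio 0.22, interval 0.10 to 0.34). Vegfd stood at 13.1 and 11.3 CPM (-0.22, interval -0.35 to -0.09). Outside connective cells, Vegfc had 9.98 and 12.7 CPM in osteoclasts and 5.03 and 4.50 in macrophages. Vegfd was close to the limit of detection there, with 1 and 3 UMIs in all macrophages and 2 and 2 in all osteoclasts.

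Pgf, which encodes placental growth factor, had its highest level in endothelial cells and its clearest library difference in connective cells. Connective cells had 24.0 CPM in control (23.0 to 25.1) and 42.1 in Smo cKO (40.6 to 43.6). The log2 ratio was 0.81 (0.73 to 0.89), higher than in 96.4% of genes, and just under the 2-fold limit. Pgf UMIs were found in 990 of 5771 control and 1256 of 4744 Smo cKO connective cells, at median depths of 11500 and 14187 UMIs, and cells with 5 or more numbered 79 and 169. After thinning each cell to 1000 UMIs, 1.85% and 3.43% of connective cells had a Pgf UMI. In macrophages the levels lay close together, at 28.6 and 27.9 CPM (-0.04, interval -0.37 to 0.30), and osteoclasts had 26.4 and 17.8 (-0.57, interval -1.19 to 0.03). Muscle cells had 3 UMIs in control and 24 in Smo cKO, or 2.67 and 9.47 CPM. That muscle ratio was 1.83 (0.11 to 4.2), and it was 0.52 with classes taken from clusters and 0.86 as a mean of single-cell CPM. In muscle cells of the Smo cKO library, those with Pgf UMIs held 2.21 of the 8 connective markers on average against 1.34 in the others, and the part of such cells in the ratio was not tested.

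Angpt1, the TIE2 activator, was mostly a connective gene, at 6.47 CPM in control (5.92 to 7.06) and 4.79 in Smo cKO (4.31 to 5.31). The log2 ratio was -0.43 (-0.63 to -0.24). In the cells with 2000 genes or fewer it had the other sign, 0.42. Mural cells, a textbook source of Angpt1, had 0 UMIs in control, with an interval of up to 15.6 CPM. In Smo cKO they had 2, or 12.6 CPM (1.52 to 45.4). These few cells do not place the mural level of Angpt1 below or above the connective one. Angpt2, the competing ligand, stood at 102.6 CPM in control endothelial cells (76.8 to 134) and 138.5 in Smo cKO (111 to 171), a log2 ratio of 0.43 with an interval of -0.08 to 0.96. Mural cells had 42.4 and 31.4 CPM from 10 and 5 UMIs, whereas connective cells had 0.930 and 1.19.

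Osteoclasts, the bone-resorbing cells, were a further class with Angpt2, at 12.8 CPM in control (8.99 to 17.8) and 33.1 in Smo cKO (25.5 to 42.2). The log2 ratio was 1.37 (0.76 to 2.0), from 36 UMIs in 29 of 290 cells and 65 UMIs in 34 of 159 cells. Macrophages had 4.57 and 5.22 CPM with an interval of -0.64 to 1.06. Osteoclasts with Angpt2 UMIs were deeper than those without, with medians of 13807 against 9087 UMIs in control and 17344 against 10553 in Smo cKO. They held 0.10 and 0.09 of the 8 endothelial markers on average, against 0.05 and 0.07 in osteoclasts without Angpt2, and 1.10 and 1.41 of the 8 connective markers against 0.79 and 1.06. The part of depth and of these markers in the ratio was not tested. Kdr and Tek had 0 UMIs in osteoclasts of both libraries.

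**Figure D2:**
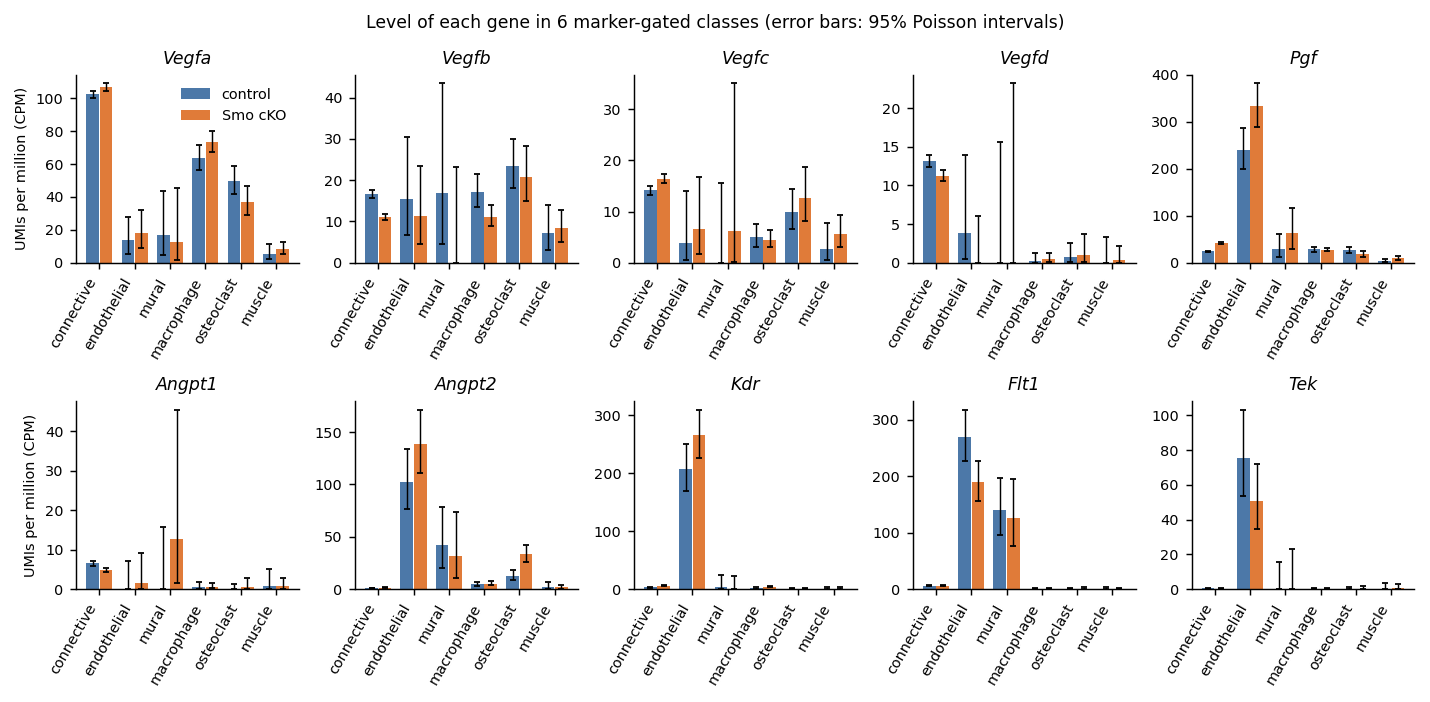
Level of each of the 10 genes (y axis, CPM, a scale of its own in each panel) in 6 cell classes of the control and Smo cKO libraries, with 95% Poisson error bars. Kdr and Tek were high in endothelial cells, Flt1 in endothelial and mural cells, and Vegfd in connective cells, where the Pgf bars were 24.0 and 42.1. The Angpt1 bar of Smo cKO mural cells, 12.6, rests on 2 UMIs.

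The 3 receptors had their highest levels among these 6 classes in endothelial cells. Kdr, encoding VEGFR2, stood at 207.0 CPM in control (170 to 250) and 265.5 in Smo cKO (226 to 310), a log2 ratio of 0.36 (-0.0017 to 0.72). Flt1, encoding VEGFR1, stood at 269.0 (226 to 318) and 189.0 (156 to 227), a ratio of -0.51 (-0.88 to -0.14). Tek, encoding TIE2, stood at 75.5 (53.7 to 103) and 50.5 (34.3 to 71.7), a ratio of -0.58 with an interval of -1.31 to 0.14. Of these 3 receptors, only the interval of Flt1 excluded 0. Single cells held 21 of its 139 control UMIs and 27 of its 116 Smo cKO UMIs. For Kdr they held 10 of 107 and 27 of 163. The intervals do not take such uneven cells into account. Kdr had the other sign, -0.71, after thinning to 1000 UMIs, and Flt1 had the other sign, 0.25, in cells with 2000 genes or fewer.

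Mural cells, which wrap small vessels, had Flt1 with at most 1 UMI-positive cell for the other receptors. Flt1 stood at 139.8 CPM in control (33 UMIs in 13 of 30 cells) and 125.8 in Smo cKO (20 UMIs in 10 of 19 cells). Kdr was found in 1 and 0 mural cells and Tek in 0 and 0. The epithelial or mesothelial class had Kdr at 116.1 and 83.1 CPM from 8 and 16 UMIs, with an interval of -1.79 to 0.95 for the ratio.

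The endothelial class held lymphatic-marked cells in both libraries. Cells with at least 2 of the 6 lymphatic markers Prox1, Lyve1, Mmrn1, Ccl21a, Reln and Pdpn numbered 17 of 56 in control and 29 of 61 in Smo cKO. Prox1, the defining lymphatic transcription factor, stood at 289.3 and 249.5 CPM in them, and had 0 and 2 UMIs in the other endothelial cells. Since Prox1 is on the list that picked these cells, this contrast is largely built in and is no separate check of their identity. Flt4, encoding VEGFR3, is not on that list. It stood at 195.5 and 318.5 CPM in the lymphatic-marked cells and at 12.9 and 29.1 in the others.

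Flt1 differed in level between these 2 groups of endothelial cells. It had 0 UMIs in the 17 control lymphatic-marked cells, with an interval of up to 28.8 CPM. In the 29 Smo cKO ones it stood at 98.5 CPM, where 2 cells held all 30 UMIs. In the other endothelial cells Flt1 stood at 357.4 and 278.1 CPM. Tek stood at 15.6 and 39.4 CPM in lymphatic-marked cells and at 95.1 and 61.4 in the others, and its intervals overlapped between the groups in Smo cKO (20.4 to 68.8 and 37.0 to 95.9). Kdr stood at 156.4 and 249.5 CPM against 223.7 and 281.3. Kdr without Flt1 was the common pattern of lymphatic-marked cells, in 9 of 17 and 15 of 29, and both receptors together the common pattern of the others, in 24 of 39 and 22 of 32. All 3 receptors were found together in 15 of 39 and 9 of 32 of those other cells.

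Pgf was higher in lymphatic-marked cells than in the other endothelial cells of both libraries, at 344.0 (250 to 462) and 512.2 CPM (435 to 599) against 205.7 (163 to 256) and 155.2 (114 to 206). Within lymphatic-marked cells its log2 ratio was 0.57 (0.08 to 1.09), and within the others -0.41 (-0.95 to 0.13). The pooled endothelial ratio of 0.47 was thus not seen in the cells with fewer than 2 lymphatic markers, where the ratio had the other sign and its interval held 0. Angpt2 stood at 140.7 and 183.9 CPM in lymphatic-marked cells and at 90.0 and 93.8 in the others. In the others, the ratios of Kdr (0.33, interval -0.12 to 0.78), Flt1 (-0.36, interval -0.77 to 0.04) and Tek (-0.63, interval -1.51 to 0.20) had the signs of the pooled class, and each interval held 0.

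**Figure D3:**
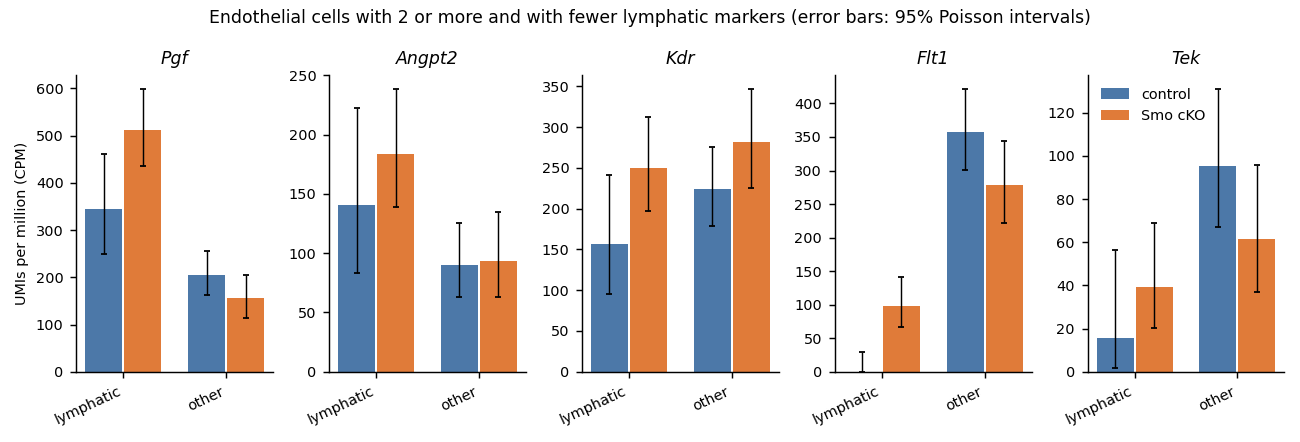
Levels (y axis, CPM) of Pgf, Angpt2, Kdr, Flt1 and Tek in endothelial cells with 2 or more lymphatic markers (17 control and 29 Smo cKO cells) and in the other endothelial cells (39 and 32), with 95% Poisson error bars. Pgf was higher in the lymphatic-marked cells of both libraries, and Flt1 was higher in the others.

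Receptor UMIs were also counted in connective cells, at low levels relative to all UMIs of the class. These cells, the largest class, nonetheless held 46.6% and 52.3% of all Kdr UMIs and 55.5% and 57.1% of all Flt1 UMIs. Over all kept cells Kdr stood at 4.47 and 7.71 CPM and Flt1 at 8.16 and 7.11. In connective cells Kdr stood at 2.76 CPM in control (2.41 to 3.16) and 5.91 in Smo cKO (5.38 to 6.48), from 217 and 447 UMIs. The log2 ratio was 1.10 (0.86 to 1.34), past 2-fold, and higher than in 98.1% of genes. Kdr UMIs were found in 188 of 5771 and 329 of 4744 connective cells, and cells with 3 or more numbered 3 and 27. Flt1 stood at 6.01 and 5.95 CPM (-0.01, interval -0.20 to 0.17), and Tek at 0.382 and 0.198 from 30 and 15 UMIs (-0.95, interval -1.95 to -0.01).

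Endothelial markers were measured in the same connective cells, and the part of free RNA or of endothelial cells in these receptor counts was not tested. The 8 endothelial markers stood in connective cells at a median of 0.162% of their endothelial level in control (range 0.0658% to 0.870%) and 0.177% in Smo cKO (0.0169% to 0.721%). These markers are the endothelial gate list, and cells with more of them were called endothelial or set apart as mixed. The gate thus held them down in connective cells and macrophages, but did not use the receptors. Percentages of markers and of receptors are therefore not on an equal footing. Kdr stood at 1.34% and 2.23% of its endothelial level, Flt1 at 2.24% and 3.15% and Tek at 0.506% and 0.393%. Connective cells with Kdr UMIs held 0.13 and 0.21 of the 8 markers on average, against 0.14 and 0.18 in those without. In macrophages, Kdr had 7 UMIs in control and 29 in Smo cKO, or 1.60 and 4.21 CPM, a log2 ratio of 1.39 (0.17 to 2.83) next to that of connective cells, and 1 cell there held at most 1 and 2 of them. These were 0.773% and 1.58% of the endothelial level, against at most 0.415% and 0.720% for the 8 markers in macrophages. Macrophages with Kdr UMIs held 1.0 and 0.63 connective markers on average, against 0.42 and 0.59 in those without. They held 0.0 and 0.07 endothelial markers, against 0.02 and 0.03. Their median depths were 3470 and 4282 UMIs, against 2645 and 3372. The part of depth and of these markers in the macrophage ratio was not tested.

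The Kdr difference was not spread evenly over clusters of connective cells. All kept cells, including mixed cells and those with too few markers, were clustered on genes other than the members and the pathway list. Clusters are named here by leading genes. The connective class made up 75.6% of the Bglap and Inhba cluster and 75.3% of the Sfrp1 and Ccl20 cluster. It made up 94.8% of the Sfrp4 and Ptx3, 94.2% of the Thbs4 and 90.8% of the Ube2c cluster. Levels by cluster are therefore not a split of the connective levels above. Cell numbers differed between libraries, with 1871 control and 744 Smo cKO cells in the Sfrp4 and Ptx3 cluster. The Bglap and Inhba cluster had 1789 and 930, and the Thbs4 cluster 1000 and 1496. The Ube2c cluster had 940 and 1158, and the Sfrp1 and Ccl20 cluster 381 and 472. The part of these numbers in the connective ratios was not tested. In the cluster led by Sfrp1, Sfrp4 and Ptx3, Kdr stood at 7.13 CPM in control and 24.5 in Smo cKO (log2 ratio 1.78, interval 1.44 to 2.12). The cluster led by Sfrp1 and Ccl20 had 1.83 and 7.05 (1.95, interval 1.16 to 2.82), and the cluster led by Thbs4 and Angptl1, with the tendon gene Tnmd, had 4.67 and 9.28 (0.99, interval 0.52 to 1.48). In the cluster led by Bglap and Inhba, which also had Tnc, Kdr stood at 0.766 and 0.702 CPM. In the dividing cells led by Ube2c it stood at 0.951 and 0.624, and both intervals held 0. With marker lists in place of clusters, Kdr was higher in Smo cKO also in cells picked by Tnc and Inhba. That list took 4407 control and 4071 Smo cKO cells, at 2.31 and 5.31 CPM (interval of the log2 ratio 0.93 to 1.49). The list of Fmod, Acan and Col11a1 gave 1.61 and 7.09 CPM (2.14, interval 0.82 to 3.71), from 6 and 26 UMIs. The list of Sfrp4, Eln and Col14a1 took 1007 control and 339 Smo cKO cells. It gave 7.19 and 19.4 CPM (1.43, interval 0.84 to 2.01).

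The ligands took other patterns over the same clusters. Vegfa was highest in the Inhba and Tnc cluster (127.8 and 134.5 CPM) and in the Ube2c cluster (131.0 and 127.2). In the Sfrp4 and Ptx3 cluster it stood at 73.6 in control and 112.5 in Smo cKO, a log2 ratio of 0.61 (0.48 to 0.74), whereas cells picked by the list of Sfrp4, Eln and Col14a1 had 74.5 and 74.7 CPM. Vegfb was highest in the Sfrp4 and Ptx3 cluster, at 27.4 and 18.4 CPM, and its ratio was negative in all 5 of the clusters just named, from -0.59 to -0.47, with each interval below 0. Vegfd was also highest there among these 5, at 25.9 and 23.5 CPM. Angpt1 in that cluster stood at 7.18 CPM in control and 2.78 in Smo cKO, from 121 and 21 UMIs (-1.37, interval -2.12 to -0.70), whereas cells picked by that list had 5.10 and 4.74 CPM (-0.10, interval -1.17 to 0.86).

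Pgf was higher in Smo cKO in 4 of these 5 clusters. The levels were 34.7 and 61.5 CPM in the Inhba and Tnc cluster, 32.1 and 56.9 in the Ube2c cluster, 11.6 and 27.2 in the Sfrp4 and Ptx3 cluster and 14.98 and 22.96 in the Thbs4 and Tnmd cluster, with log2 ratios of 0.83, 0.82, 1.23 and 0.62 and each interval above 0. In the Sfrp1 and Ccl20 cluster the levels were 24.0 and 25.1 (0.07, interval -0.19 to 0.33). The skeletal cluster led by Ibsp, Acan and Fmod, genes of bone and cartilage matrix, had Vegfa at 71.1 and 82.8, Pgf at 10.97 and 17.8 and Vegfb at 10.8 and 5.61 CPM.

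A small connective cluster led by Serpinb2 and Dlk1 had 1 control cell and 115 Smo cKO cells. In its Smo cKO cells Pgf stood at 136.4 CPM from 279 UMIs and Vegfd at 68.5 CPM from 140 UMIs, and Vegfa at 95.4. Without this cluster, an alternative chosen after seeing the data, the connective log2 ratio of Pgf was 0.72 and that of Vegfd -0.43, while that of Kdr was 1.12. With 1 library per genotype, a cluster of 1 library and a cell type cannot be told apart.

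**Figure D4:**
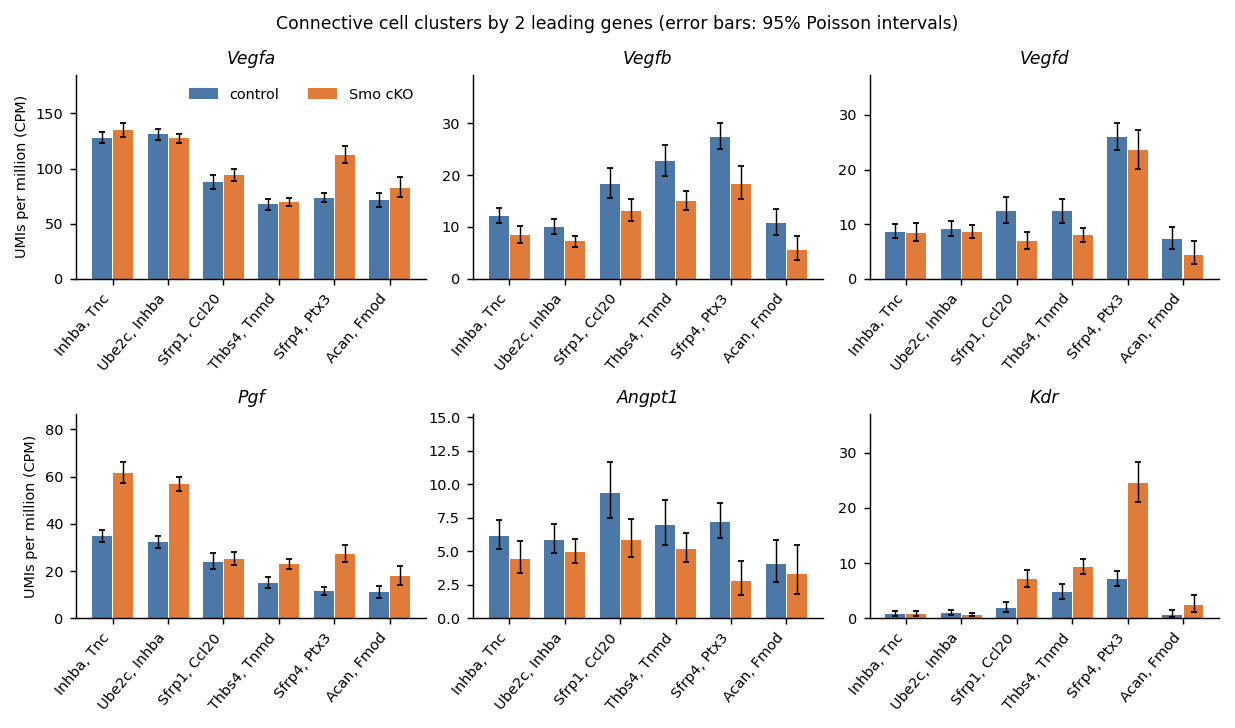
Levels (y axis, CPM) of 6 genes in 6 connective or skeletal clusters, each marked by 2 of its leading genes, in the control and Smo cKO libraries with 95% Poisson error bars. Kdr was 24.5 in the Smo cKO cells of the Sfrp4 and Ptx3 cluster against 7.13 in control, and under 1 in the Inhba and Tnc cluster.

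Over all classes, 33 pairs of a member and a class had 20 or more UMIs. In 4 of them the Smo cKO level was at least 2-fold higher (Kdr in connective cells and macrophages, Pgf in muscle cells, Angpt2 in osteoclasts), in 1 at least 2-fold lower (Vegfa in neutrophils), and in 28 neither. Intervals lay above 0 in 8 pairs and below 0 in 7, and the share of all genes with such intervals was not computed. Where UMIs are many, an interval leaves out 0 at a small ratio, such as 0.06 for Vegfa in connective cells. This count therefore does not set the members apart. In connective cells 1 of 10 members was 2-fold higher and 0 lower, beside 2.35% of all genes higher and 2.09% lower, with a median log2 ratio of 0.02 for the members and 0.01 for all genes. In endothelial cells 0 of 5 members passed 2-fold, beside 7.41% of genes in either direction. In macrophages 1 of 6 was higher beside 2.53%, in osteoclasts 1 of 5 beside 2.81%, in muscle cells 1 of 3 beside 5.0%, and in neutrophils the 1 member measured was lower beside 7.98%. In mural cells 0 of 1 and in the epithelial or mesothelial class 0 of 2 passed 2-fold, beside 11.8% and 12.5% of genes in either direction. These counts are too small to set the members apart from other genes.

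**Figure D5:**
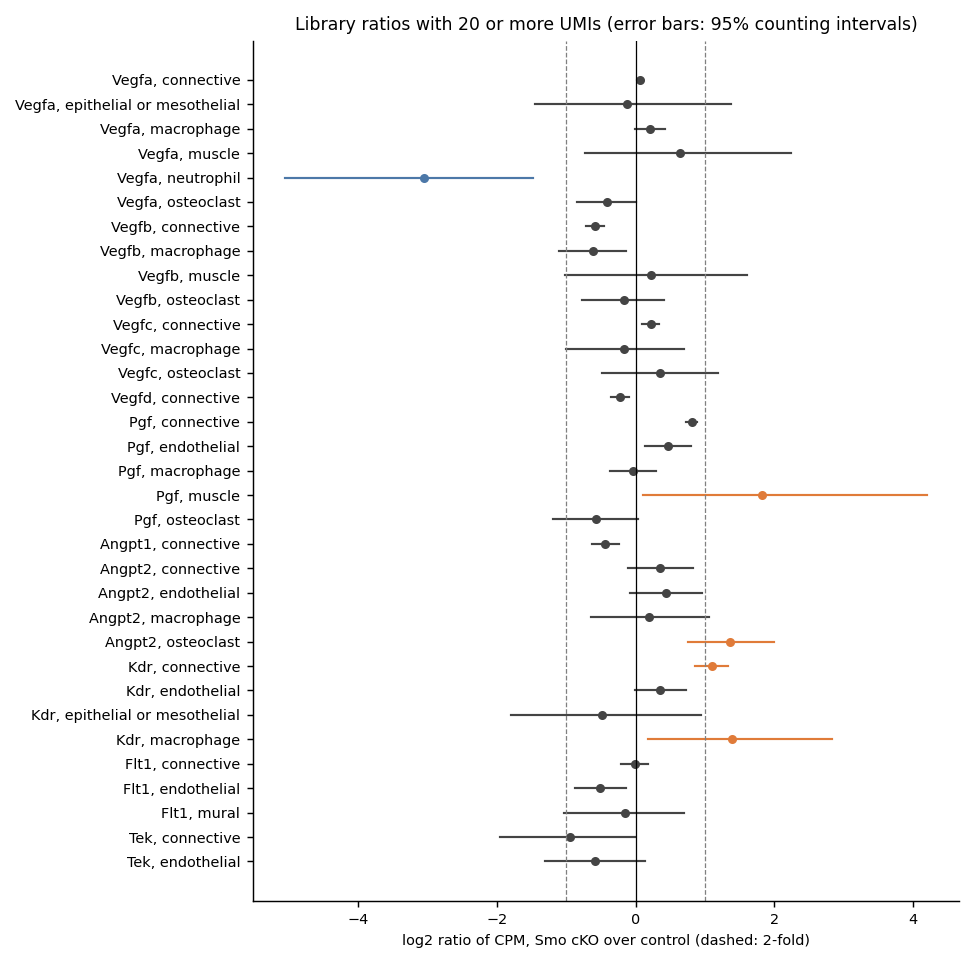
Log2 ratio of CPM, Smo cKO over control (x axis, in log2 units), for the 33 pairs of gene and cell class with 20 or more UMIs. Points are ratios, horizontal bars 95% counting intervals and dashed lines the 2-fold limits, and the coloured pairs are the 4 higher and 1 lower.

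Other genes of the pathway were taken from a list of 16 co-receptors, ligand-processing genes and sprouting genes. In connective cells 15 had 20 or more UMIs, and in Smo cKO 1 was past 2-fold upward, beside 2.35% of all genes, and 1 past it downward, beside 2.09%. The first was Esm1, a gene of endothelial tip cells, with 15 UMIs in 14 cells and 34 UMIs in 16 cells, and the second Svep1, an extracellular matrix protein needed for lymphatic vessels, at 17.4 and 8.17 CPM (log2 ratio -1.09, interval -1.23 to -0.96). Ccbe1, which helps process VEGF-C, stood at 33.8 and 23.9 CPM (-0.50, interval -0.59 to -0.41), and Adamts3, the protease of that step, at 5.11 and 5.70. Angptl4, a secreted relative of the angiopoietins, stood at 127.3 and 188.6 CPM (0.57, interval 0.53 to 0.60). The co-receptors Nrp1 and Nrp2 were nearly level in connective cells, at 46.0 and 50.5 CPM and at 83.6 and 84.8 CPM.

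In endothelial cells 12 of the 16 genes had 20 or more UMIs, and 1 was at least 2-fold higher in Smo cKO, beside 4.47% of all genes. This was Flt4, at 58.0 CPM in control and 172.7 in Smo cKO (1.57, interval 0.98 to 2.21), beside 17 of 56 and 29 of 61 lymphatic-marked cells. Dll4, the Notch ligand of tip cells, stood at 40.6 and 57.0 CPM with an interval of -0.33 to 1.34, and Pdgfb, which draws mural cells to vessels, at 166.4 and 112.4 (-0.57, interval -1.04 to -0.09). Macrophages had 5 measured genes of the list, osteoclasts 4 and mural cells 3, with 0 past 2-fold in either direction, beside 4.24%, 4.66% and 11.8% of all genes. In muscle cells 1 of 5 was higher, beside 5.0% of all genes, namely Nrp2, with 5 and 30 UMIs.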

How the data were processed

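The authors dissected rib calluses 4 days after injury, pooled 3 animals per genotype, sequenced 2 single-cell libraries on the 10x Chromium platform and deposited raw UMI counts per gene and barcode, made with Cell Ranger 3.0.2 on mm10. The authors also left out cells with over 2000 genes as possible doublets. Here cells with 200 or more genes and under 10% mitochondrial UMIs were kept, with no upper limit of genes. Of the kept cells, 58.0% in control and 59.4% in Smo cKO had over 2000 genes. A cell was placed in the class with the most of its 8 markers detected (at least 3), and was called mixed when a list of another compartment reached over 50% of that number. One marker, Ahsp, was not in the matrices. Dividing lists held 6 markers, of which at least 2 were needed. No doublet caller was run. CPM is the summed UMIs of a class divided by all its UMIs. Levels have exact Poisson and shares Clopper-Pearson intervals, and ratios exact conditional binomial ones. UMI counts are not per gene length, so levels were compared within a gene. A pair was called at 2-fold with 20 or more UMIs. The rule for named genes took all members and the fixed pathway list, and for likeness the 3 genes with the highest correlation. Clusters of all kept cells came from 2000 variable genes without members or pathway genes, 30 principal components, 20 neighbours and Leiden resolution 0.6. Tools were Python 3.11.15, numpy 2.4.6, scipy 1.17.1, scikit-learn 1.9.0 and igraph 0.11.9. The fold call was run on simulated Poisson counts with planted changes, without variation between animals or libraries. That run cannot show how often such variation gives a call. Kept libraries held 104189394 and 110863278 UMIs. The members and lists were chosen with earlier results of these data known. Alternatives covered cell filters, gates, clusters, scaling, cell weighting, thinning, deep cells, shared barcodes and thresholds.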

Additional observations from a re-analysis of the deposited data

Results flagged for a closer look

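Vegfa had ratios of opposite sign in 2 classes whose intervals both excluded 0, with a log2 ratio of Smo cKO over control of 0.06 in connective cells and -3.05 in neutrophil-gated cells. The neutrophil value rests on 21 and 4 UMIs, 11 of them in 1 control cell, and the difference between the classes was not tested.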

How the results depend on the processing

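No paired analysis was possible because each genotype had 1 library. The count of 5 pairs past 2-fold was 3 in cells with 200 to 2000 genes, 8 with classes from clusters, 1 after thinning to 1000 UMIs, 9 at 1.5-fold and 2 at 50 or more UMIs, where fewer UMIs, or a looser limit at 1.5-fold, change the count by construction. Other settings gave 4 to 7. The share of all genes past the limit was not computed for these settings, so the counts describe the members alone. The setting of 200 to 2000 genes took the gene limits that the authors described. In these cells the log2 ratios were 0.17 for Vegfa, 0.99 for Pgf and 1.75 for Kdr in connective cells. In endothelial cells they were 1.13 for Pgf and 0.25 for Flt1. After thinning they were 0.14 for Vegfa and 0.97 for Pgf in connective cells and -0.71 for Kdr in endothelial cells. The connective Pgf ratio was 0.92 without the top 5% of cells by UMIs and 0.72 without the Serpinb2 and Dlk1 cluster, an alternative chosen after seeing the data. The cause of these shifts was not tested. Kdr in connective cells stayed past 2-fold in 12 of 12 settings (1.06 to 1.75). Among the settings that gave a ratio, Kdr in macrophages did so in 11 of 11 and Angpt2 in osteoclasts in 10 of 10. The remaining settings gave these last pairs no ratio, so whether they held there is not known. Of the alternative ratios, 340 lay inside the interval of the reported value and 22 outside it. Alternative levels were taken for each member in the class with most of its UMIs. Of these, 171 lay inside the interval of the reported level and 49 outside it. All alternatives drew on the same 2 libraries, and many intervals were wide. Members with under 20 UMIs in a class got no ratio, and 1 library per genotype limits every comparison.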

Other observations

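The genes whose levels over 17 points (classes in each library with 100000 or more UMIs) lay closest to each member give a further description. For Vegfa the nearest of 13477 genes was Hk2, the hexokinase of glycolytic tissues, with Pearson's r of 0.91 on log2(CPM + 10). For Tek the nearest were Cyyr1, Adgrl4 and Ptprb, the last encoding the phosphatase VE-PTP that acts on TIE2, with r of 0.999, 0.999 and 0.998. Kdr lay nearest to Tmem255a (0.99) and Vash1 (0.99), the latter encoding vasohibin, an endothelial inhibitor of vessel growth. Flt1 lay nearest to Tcf15 (0.98), and Angpt2 to Calcrl (0.93), the receptor component for adrenomedullin. Vegfd lay nearest to Pappa (0.97), Scd1 and Dcn, and Angpt1 to Scn7a (0.93) and Alpl (0.92). The points share libraries and a few classes drive most of them, so no test is given.

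In the 46 control and 107 Smo cKO connective cells with a tdTomato UMI, Pgf stood at 17.8 and 47.5 CPM from 13 and 105 UMIs, a log2 ratio of 1.42 (interval 0.58 to 2.37), and Vegfa at 108.1 and 109.4. In connective cells without a tdTomato UMI, the Pgf ratio was 0.80 (0.72 to 0.88). The tdTomato cells had 0 and 10 Kdr UMIs, or 0 and 4.52 CPM. The interval of that log2 ratio ran from -0.43 upward without limit and so held 0. Connective cells without a tdTomato UMI had Kdr at 2.79 and 5.95 CPM.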
